A study of Mus musculus with 8 samples.

Results

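The probes of the striatal transcriptome were put in order of brightness in 4 wildtype mice, to describe which genes filled the top of the order and how far the order held from mouse to mouse. The members were the 4 wildtype samples of a series of 8. A gene was ranked where it had a probe that was no control, carried no outlier flag and was well above background in the mouse's own dye in all 4 samples, which 13812 of 30175 gene names on the array met. Signals were turned into percentiles within each sample, with 100 for the brightest gene, and each gene was read by its brightest probe. The percentile is therefore a rank of probe brightness. It depends on the 60-base probe as well as on the RNA, so that an order between genes is not an order of RNA amounts.

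All 4 mice were adult males, wildtype at Brd2, from matings of Brd2+/- parents at generation 7 of backcrossing to C57Bl/6J. They carried no gene trap in Brd2, as tested by PCR across the trap junction, and received no treatment. Replicates 1 and 2 shared 1 array, with replicate 1 in Cy3 and replicate 2 in Cy5, and replicates 3 and 4 shared another, with replicate 3 in Cy3 and replicate 4 in Cy5. Array and mice therefore cannot be told apart, and mice on 1 array also shared their spots and hybridisation, and their channels were dye-normalised against each other by the scanner software. The tissue label names prefrontal cortex and striatum together, the protocol describes removal of frontal cortex before the striatum was taken, and a description field names the left atrium of the heart. Marker genes of all 3 tissues are given below. Between 21010 and 23233 of 39429 probes were well above background in a sample, the median ratio of spot to local background ran from 4.16 to 10.5, and 0 spots were saturated. The arrays' number limits the precision.

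The striatum is the input nucleus of the basal ganglia. Most of its neurons are GABAergic projection neurons with dense dopamine and adenosine receptors and a strong cyclic AMP cascade, divided into a direct pathway that expresses Drd1a and Tac1 and an indirect pathway that expresses Drd2, Adora2a and Penk. A few classes of interneuron, astrocytes, myelinating oligodendrocytes, microglia and vessels make up the rest. In brain as a whole, transcripts for energy metabolism, translation and the cytoskeleton are known to be abundant.

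The top of the order held genes of respiration, glycolysis, calcium signalling and one striatal signalling gene, together with a group of genes whose probes carried repeat sequence. Among genes with a symbol, CYTB, the mitochondrial cytochrome b gene, stood at positions 3, 2, 3 and 6 in replicates 1 to 4, and Gapdh, a glycolytic enzyme, at 2, 3, 13 and 10. COX2, a mitochondrial subunit of cytochrome oxidase, stood at 14, 15, 8 and 22. These genes were near the top in each mouse, with CYTB inside the first 6 positions of all 4.

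Nuclear respiratory subunits followed, with Cox6a1 at 26, 29, 28 and 25 and Cox4i1 at 36, 65, 39 and 58. Aldoa and Aldoc, the muscle and brain forms of aldolase, stood at 8, 19, 35 and 52 and at 24, 34, 52 and 56. Ppia, a peptidyl-prolyl isomerase, stood at 5, 27, 17 and 29. Cox6a1 moved over only 4 positions between mice, whereas Aldoa was brighter in both mice of the first array than in both of the second.

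Neuronal genes reached the same range. Hpca, the calcium sensor hippocalcin, stood at 7, 4, 32 and 109. Ppp1r1b, which encodes DARPP-32, the dopamine-regulated inhibitor of protein phosphatase 1 that marks striatal projection neurons, stood at 27, 9, 23 and 112. Both were lowest in replicate 4, and neither passed limma's test between the arrays (adjusted p = 0.0663 for Hpca and 0.277 for Ppp1r1b). Kif5a, a neuronal kinesin, stood between 32 and 37 in every mouse. Calm2, a gene for calmodulin, stood between 19 and 96. Apoe, an apolipoprotein made mainly by astrocytes in brain, stood between 22 and 55.

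**Figure D1:**
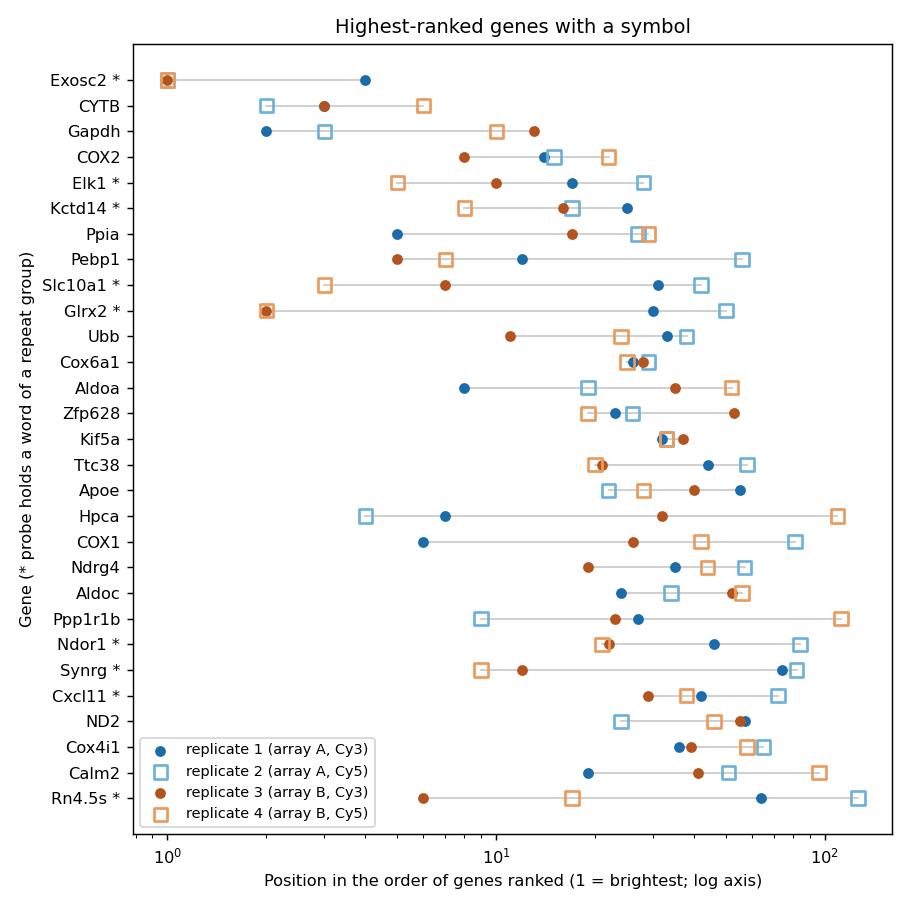
Position in the order (x axis, log scale, 1 = brightest of 13812 genes) of the highest-ranked genes with a symbol, 1 row per gene and 1 mark per mouse: filled circles for Cy3, open squares for Cy5, blue for the first array, orange for the second; asterisks mark probes that hold a word of the repeat groups. Exosc2 was at position 1 in 3 mice and at 4 in replicate 1, and Hpca and Ppp1r1b fell back to 109 and 112 in replicate 4.

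Of the 30 highest-ranked genes with a symbol, 9 were read by probes with sequence that recurs across the array. Exosc2, an exosome subunit, was the brightest gene of all in replicates 2, 3 and 4. Elk1 (a transcription factor), Kctd14, Slc10a1 (a bile acid transporter of liver), Glrx2 (a glutaredoxin), Ndor1, Synrg and Cxcl11 (a chemokine) were all among the first 130 positions in every mouse, as was Rn4.5s, named for a small RNA. The probes of Elk1, Glrx2, Med16, Ndor1 and Cxcl11 are printed because they lie on 5 chromosomes and share 24 bases, given in capitals:

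Elk1: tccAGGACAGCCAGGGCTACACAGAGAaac
Glrx2: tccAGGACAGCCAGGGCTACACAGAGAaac
Med16: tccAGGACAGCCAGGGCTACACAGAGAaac
Ndor1: aggAGGACAGCCAGGGCTACACAGAGAcac
Cxcl11: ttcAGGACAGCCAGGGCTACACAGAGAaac

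Each line is a 30-base stretch of a 60-base probe, 5′ to 3′ as the probe is listed. On mm9 the probes lie at chrX:20510521-20510580 (minus strand), chr1:145596708-145596767 (plus), chr10:79357669-79357728 (minus), chr2:25100377-25100436 (minus) and chr5:92788567-92788626 (minus), in that order. The letters are those generally known for the B1 family of short interspersed repeats, which occurs in very many copies in the mouse genome and in many transcripts; no repeat annotation and no exon annotation of that build was used here. A second set, from Lilrb3, Synrg and Gla, shared 12 bases of the kind known for the B2 family:

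Lilrb3: gatcgaatgCCCTCTTCTGGTgtgtctgaa
Synrg: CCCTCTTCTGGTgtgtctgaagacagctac
Gla: gatctgatgCCCTCTTCTGGTtctctagac

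These probes lie on mm9 at chr7:3663046-3663105 (minus strand), chr11:83855517-83855576 (plus) and chrX:131122895-131122954 (minus). Lilrb3 encodes an immunoglobulin-like receptor of leukocytes and Gla a lysosomal galactosidase.

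Probes that shared a stretch with the probes of Elk1, Slc10a1, Exosc2 or Lilrb3, which were chosen after their ranks were seen, were then counted. With those 4 probes left out, 65 probes on the array held a 14-base word of one of them in the same orientation. Of these, 48 were ranked, their median percentile was 96.7, and 28 lay over 95 and 15 over 99. In the reverse complement, 33 probes held such a word, 21 were ranked, their median was 48.3, and 0 lay over 95, beside 809 of all 16802 ranked probes. The median over all ranked probes was 49.9. Words of 12 bases gave a median of 91.1 and words of 16 bases one of 98.6 for the same orientation. Not every probe with such a word was bright: Limk2, a kinase, lay at 10.7 and Vsig10 at 10.2.

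Each gene was read by its brightest probe, so its other probes are dimmer by construction. How much dimmer they were varied. Elk1's second probe lay at 15.1 among all ranked probes, and those of Kctd14 at 53.1 and 12.7. Those of Glrx2 lay at 15.3 and 70.9 and that of Ndor1 at 41.4. Other probes of Synrg lay higher, at 84.0 and 68.6, and that of Cxcl11 at 68.8. The second probe of Slc10a1 was well above background in no sample. Ttc38, at positions 44, 58, 21 and 20, shared a word of 12 bases but none of 14 with the Elk1 probe, and its other ranked probes lay at 1.05 and 30.5. Outside the groups of 14-base words, 5 further ranked probes of Gapdh lay between 96.4 and 99.9. Second probes of Pebp1, Hpca and Calm2 lay at 98.0, 95.8 and 99.1, but that of Zfp628, another of the 30 highest, lay at 58.4. The part of the repeat sequence in the rank of any gene was not tested.

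**Figure D2:**
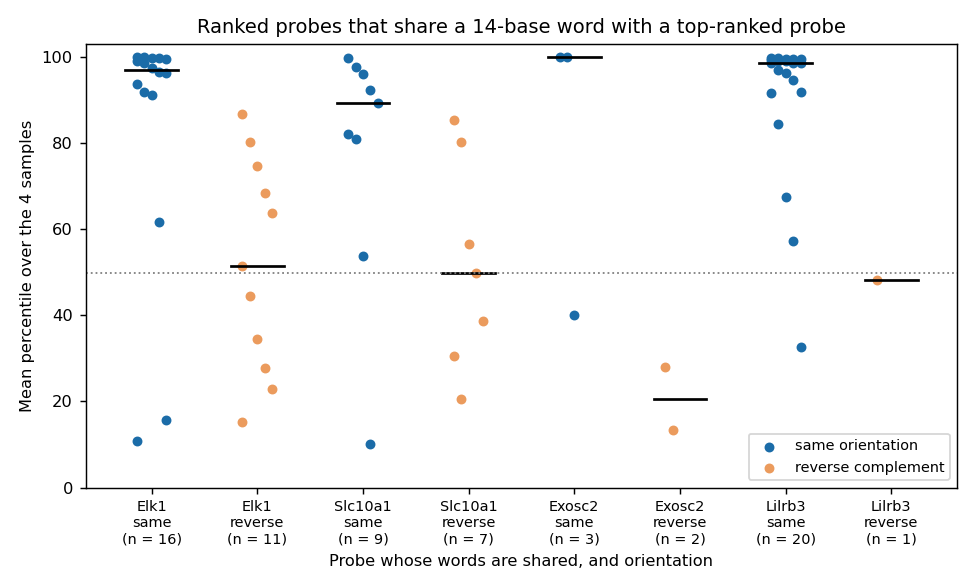
Mean percentile over the 4 mice (y axis, 100 = brightest) of each ranked probe that shares a 14-base word with the probe of Elk1, Slc10a1, Exosc2 or Lilrb3, in the same orientation (blue) or in the reverse complement (orange); black bars are medians and the dotted line the median of all ranked probes, 49.9. For Elk1 the medians were 97.0 (16 probes) and 51.5 (11 probes), and for Lilrb3 98.5 (20 probes) against 48.3 (1 probe).

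Simple repeats formed a further group. A run of at least 14 bases built from a unit of 2, 3 or 4 bases was found in 415 probes, of which 268 were the probe of a ranked gene and 40 of a gene in the top 5%. The ranked probes with a unit of 2 bases had a median percentile of 85.5 (122 probes) and those with a unit of 3 bases one of 79.3 (97 probes), against 47.9 for a unit of 4 (68 probes). This group held several cell type markers, so 3 of its probes are shown, with the repeat in capitals:

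Itgam: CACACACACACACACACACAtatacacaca
Lhx6: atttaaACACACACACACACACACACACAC
Pigr: agaaggAGAAGAAGAAGAAGAAGAAGAAGA

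They lie on mm9 at chr7:135261755-135261814 (plus strand), chr2:35937644-35937703 (minus) and chr13:108165151-108165210 (minus). Itgam, the CD11b integrin of microglia, ranked at 98.8 by this probe and at 13.6 once repeat probes were left out. Lhx6, a transcription factor of Sst and Pvalb interneurons, went from 96.4 to 23.1. Dnajc5, a vesicle chaperone whose probe held a word of the Elk1 probe, went from 96.1 to 34.0. Atp5g1, an ATP synthase subunit, went from 96.4 to 81.6, and Fkbp1a stayed at 97.6. For Snap25, Adora2a, Eya1, Chat and Ermn the repeat probe was the single ranked one.

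Once the 480 probes of the shared-word and simple-repeat groups were left out, 13564 genes were ranked, and 21 of the 30 top genes were among the 30 again. Among the 9 that entered were Cox8a, a respiratory subunit, the ribosomal protein genes Rpl41 and Rps14, the cystatin C gene Cst3, and Ncdn, Rtn1, Gabarapl1 and Aplp1.

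Names that are not gene symbols, such as clone, predicted-gene and accession names, were common at the top: 306 of the 656 genes with a mean percentile over 95 had one (46.6%), against 3337 of all 13812 (24.2%). The probes of such names were matched to those of genes with a symbol over 95, with the repeat groups set aside. Of 278 names over 95, 54 (19.4%) shared a 14-base word with these probes, against 74 of 2923 at 95 or below (2.53%). Names at 95 or below were not matched to genes in their own range, so the shares are not a like-for-like comparison. Gapdh, a glycolytic gene, and the predicted gene Gm5523 are an example of a shared word. Gm12070 is shown beside them for the same stretch, but its probe also holds a simple repeat and was not in that count. The 27 shared bases are in capitals:

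Gapdh: aCCTACTCTCTTGAATACCATCAATAAAgt
Gm5523: cCCTACTCTCTTGAATACCATCAATAAAtt
Gm12070: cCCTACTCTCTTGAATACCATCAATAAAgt

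Their probes lie on mm9 at chr6:125111869-125111928 (minus strand), chr1:13775772-13775831 (minus) and chr11:26687772-26687831 (plus). The mean percentile was 99.96 for Gapdh, 99.95 for Gm5523 and 99.88 for Gm12070. Signal from near-identical copies could not be divided between them, and their ranks are uncertain.

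The probes of 1 gene often disagreed. Of 2563 genes with several ranked probes, the median gap between the brightest and the dimmest was 22.4 percentiles (quartiles 9.03 and 41.8), and the Spearman coefficient between them across genes was 0.588, where genes are not independent replicates. Of 171 genes whose brightest probe lay over 95, the dimmest also lay over 95 in 40 and lay under 50 in 44. The GC content of a probe had a Spearman coefficient of 0.0346 with its percentile over 16802 probes.

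Among the function lists, the cytosolic ribosomal proteins and glycolysis had the highest medians. Of the ribosomal proteins, 53 of 67 ranked members lay over a mean percentile of 95, against 4.75% of all genes. Their median percentile was 97.4, 97.7, 97.5 and 97.3 in replicates 1 to 4, with Rpl41 (99.6) and Rps14 (99.6) at the top. The list medians varied little between mice; 14 further members were well above background but were lost to outlier flags. For every list the median over all genes was 49.8, and the lists were compared with it as a description, without a test.

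Glycolysis had medians of 96.9, 97.1, 97.3 and 98.0 and 11 of 17 members over 95. It was above the ribosomal list in replicate 4, and in the mean of the medians when each gene was read by the mean of its probes (97.3 against 96.7), so that the order of the 2 lists was not settled. Gapdh, Aldoa, Aldoc, Eno1 (99.3), Eno2 (98.8), Gpi1 (98.7), Ldhb (98.7) and Tpi1 (98.0) filled it. Ldha, the lactate dehydrogenase subunit of muscle, lay lower at 81.7, and the lactate carrier gene Slc16a1 at 16.2. By these probes, most ranked members lay over 95, and Ldha and this carrier were among those that did not.

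Oxidative phosphorylation had medians between 94.5 and 95.4, with 24 of 49 members over 95, among them Cox6a1, Cox4i1, Cox8a (99.6) and the ATP synthase gene Atp5b (99.2). Ndufv3 was the lowest member at 43.3. Iron storage and antioxidant genes lay between 92.0 and 93.2, led by Sod1 (97.9), Prdx5 (97.1) and Prdx6 (95.9), with 3 of 18 over 95.

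Cytoskeletal genes had medians between 90.8 and 93.3, with 10 of 27 members over 95, led by Kif5a, Actg1 (98.7) and Tuba1a (98.0), a main neuronal tubulin. Calcium signalling genes lay between 88.7 and 92.4, with 10 of 27 over 95, among them Hpca, Calm2, the calcineurin subunit Ppp3ca (99.2) and Pcp4 (99.0), a calmodulin regulator. Translation factors lay between 87.9 and 90.9, with Tpt1 (99.3) and the elongation factor Eef1a1 (98.8) at their head. Ubiquitin and proteasome genes lay between 89.1 and 90.4, led by the polyubiquitin gene Ubb (99.8), and chaperones between 86.1 and 87.5, led by Ppia, Hsp90ab1 (99.3) and Hspa8 (98.9). Ion and proton pump genes had 92.4 and 92.3 in replicates 1 and 2 and 87.2 and 87.4 in replicates 3 and 4.

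Synaptic genes spread over the whole order. The vesicle list had medians between 72.1 and 80.7, with the clathrin light chain Cltb at 15.8. At its top lay Cplx2 (99.0), a complexin, Snap25 (98.8, by a simple-repeat probe) and Slc32a1 (98.6), which loads GABA into vesicles. A second probe of Slc32a1 lay at 51.0 among all ranked probes. Glutamate and GABA-A receptor genes lay between 56.5 and 64.6, and 0 of 27 was over 95. Gabrd (92.6), Grik5 (92.1) and Grm5 (90.8) led them, while Grin1, the obligatory NMDA receptor subunit, was read at 20.2. Other probes of Grm5 lay at 61.5 and 42.6 among all ranked probes. Splicing and hnRNP genes lay between 69.7 and 77.2, and bromodomain and P-TEFb genes between 33.9 and 44.8.

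Brd2, the gene that the series set out to alter in its other group, lay at percentiles 81.2, 78.8, 87.8 and 88.1 in these wildtype mice. It was higher in replicates 3 and 4, by 0.96 on the log2 scale (SE 0.15, limma adjusted p = 0.0302), while a second Brd2 probe passed the background filter in 3 of the 4 mice. Supt5h, an elongation factor, lay at 90.6 and the P-TEFb kinase Cdk9 at 89.1. A second ranked probe of Cdk9 lay at 46.4 among all ranked probes.

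**Figure D3:**
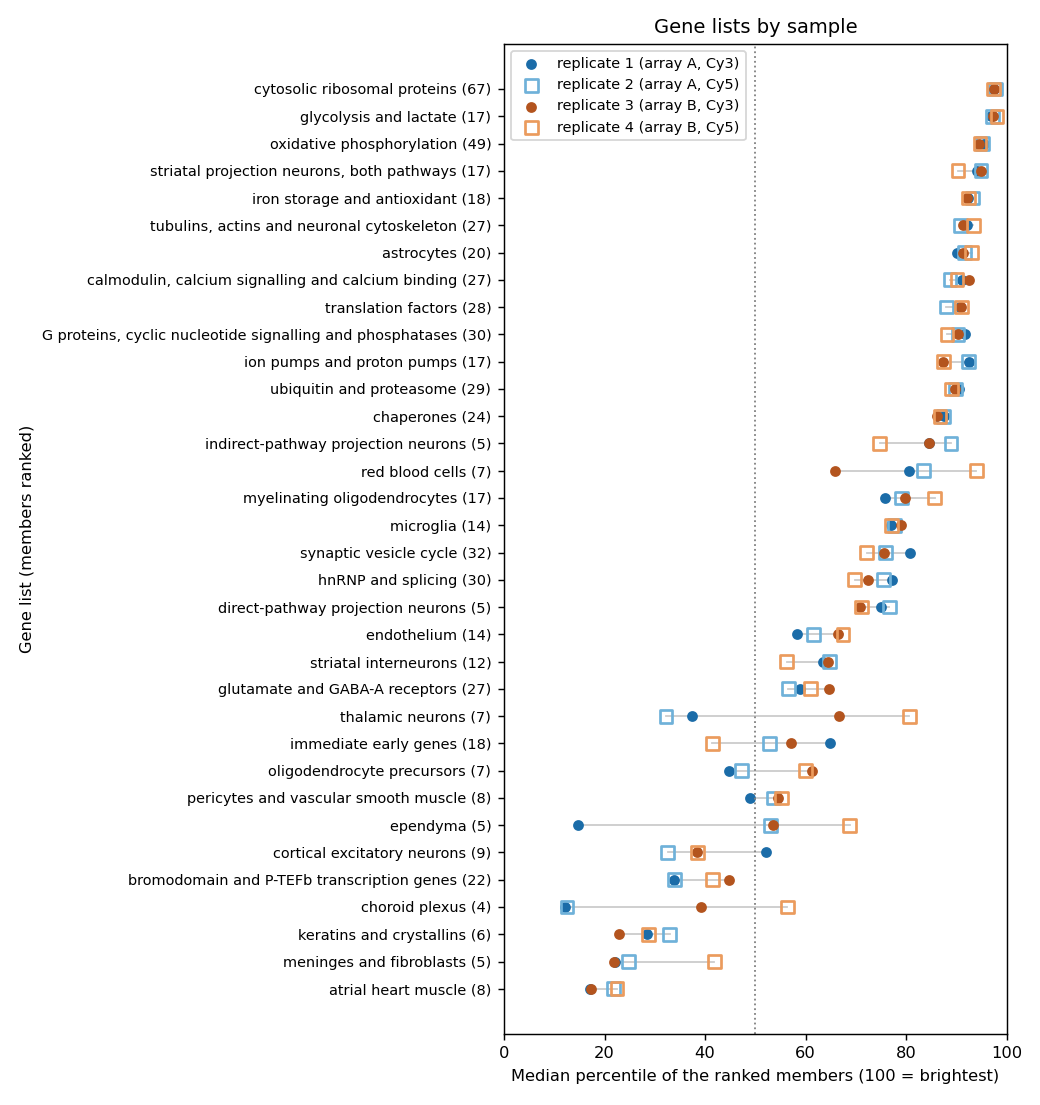
Median percentile (x axis, 100 = brightest) of the ranked members of 34 gene lists in each mouse, with the number of ranked members in brackets; filled circles are Cy3, open squares Cy5, blue the first array, orange the second, and the dotted line is 50. Ribosomal, glycolytic and respiratory lists sat over 94 in all mice, the thalamic list ran from 32.2 to 80.6 between mice, and the atrial heart list lay between 17.1 and 22.5.

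The tissue label was set against cell type markers. Striatal projection neuron genes were among the highest cell type lists, with medians of 94.1, 94.8, 94.9 and 90.3 in replicates 1 to 4 and 8 of 17 ranked members over 95. Ppp1r1b, Pcp4, Pde1b (98.9), a calmodulin-dependent phosphodiesterase, Scn4b (98.4), a sodium channel subunit, Gng7 (97.8), Rgs9 (97.5), Arpp21 (97.5) and Pcp4l1 (97.3) were those 8. The lowest ranked members were Actn2 and Rasgrp2, at 74.1. In these bulk samples, fewer cells of a type and less RNA per cell cannot be told apart.

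Of the pathway markers, Penk, the enkephalin precursor, lay at 99.1, 99.3, 99.5 and 97.4, and Tac1, the substance P precursor, at 96.6, 96.2, 97.2 and 93.4. Both neuropeptide genes lay over 93 in every mouse and were lowest in replicate 4. Each was the highest ranked member of its pathway list, and other members went lower. The lowest ranked member lay at 24.4 in the direct-pathway list and at 24.8 in the indirect-pathway list. Eya1, of the direct-pathway list, lay at 84.0 by a simple-repeat probe. Adora2a lay at 91.2 by a simple-repeat probe, and Gpr6, a receptor of indirect-pathway neurons, at 83.1. The dopamine receptor gene Drd2 lay lower, at 56.7, 59.9, 38.9 and 30.7. With repeat probes left out, the list medians went from 73.4 to 54.998 for the direct and from 83.1 to 65.5 for the indirect pathway, each resting on 5 ranked genes before that step and 4 after it.

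Interneuron genes had medians of 63.4, 64.7, 64.5 and 56.2. Sst, somatostatin, lay at 96.5, 96.2, 95.7 and 95.6, Npy at 84.0 and Chat, of cholinergic neurons, at 35.5. Pvalb, parvalbumin, lay at 81.3, 72.6, 97.2 and 98.5, and is described below.

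Astrocyte genes had medians between 90.1 and 93.0, with 7 of 20 over 95: Apoe, Aldoc, Cst3, Cpe, Sparcl1, Clu and Mt1. Several of these are also expressed by neurons, microglia or vessels. Among more restricted astrocyte genes, Gfap lay at 68.5, Aqp4 at 66.8, the glutamate transporter Slc1a2 at 52.9 and the connexin Gja1 at 45.6. The members lost to outlier flags, Mt2, Glul and Mlc1, lay at 95.7, 95.2 and 90.8 with flagged spots kept. Myelin genes lay at 75.8, 79.1, 79.7 and 85.7, led by Apod (97.5), Trf (96.5) and Cnp (95.3). A second probe of Apod lay at 25.5 among all ranked probes. Microglial genes lay between 77.0 and 78.9. Apart from Itgam, Csf1r lay at 91.1 and P2ry12 at 40.2. Other probes of Csf1r lay at 43.6 and 42.1 among all ranked probes. Endothelial genes lay between 58.3 and 67.4, led by Ly6c1 (92.0).

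Cortical excitatory genes had medians of 52.1, 32.6, 38.3 and 38.4, with 0 of 9 over 95, and replicate 1 alone was above the all-gene median of 49.8. With no filter on dim probes the mean of these medians went from 40.4 to 58.5. Nrn1 lay at 82.8, 32.6, 56.8 and 81.9, and the cortical transcription factor Tbr1 at 85.3, 32.8, 38.3 and 38.4. Of 27 atrial heart genes, 13 were well above background in none of the 4 samples, among them Myl7, Bmp10, Actc1, Ttn, Pln and Nppb. The share of all gene names well above background in none was not counted. Of the 27, 8 were ranked, beside 13812 of all 30175 gene names, and had medians between 17.1 and 22.5. Myh7 (76.1), Myl4 (47.6) and Ryr2 (31.7) were the highest, and the atrial peptide gene Nppa lay at 6.24. Of the tissues named in the labels, the shared striatal projection neuron list thus had the highest median and the heart list the lowest, with single genes such as Drd2 and Myh7 away from their lists. Keratin and crystallin genes, best known from skin and lens, had 12 of 25 members well above background in none, again without a share for all names. The 6 ranked had medians between 22.9 and 33.0.

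Outlier flags took bright spots out of the order. The scanner software flagged 2.69% to 4.53% of spots in a sample, and their median processed intensity was 3002 to 4386, against 74.6 to 84.0 for the other spots. With flagged spots kept, 15342 genes were ranked, 1530 more, and 149 of the added genes had a mean percentile over 95. Fth1, the ferritin heavy chain, then stood at 99.7, beta-actin (Actb) at 99.6 and Rpl38 at 99.2. Of striatal genes, Ngef (97.7), Rasd2 (97.0), Gad2 (91.5), Gad1 (88.8), Pdyn (87.9) and Drd1a (80.4) were among those that came back. The list median of bromodomain and P-TEFb genes moved to 50.1 from 38.5, and that of vesicle genes to 89.0 from 76.1.

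The order was most stable at its bright end and least so in its lower middle. Across the 13812 genes, the Spearman coefficient was 0.984 for replicates 1 and 2 and 0.982 for replicates 3 and 4, which shared an array. Between arrays it was 0.941 (1 with 3), 0.923 (1 with 4), 0.938 (2 with 3) and 0.924 (2 with 4). All 4 between-array values were lower than both within-array ones, including the pairs of equal dye. Points of a correlation share probe sequences, so the coefficients describe these samples and carry no p.

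Each sample had 691 genes in its top 5%. Of these 555 (80.3%) were in the top 5% of all 4 mice, and 830 were there in at least 1. For the top 1% the numbers were 98 of 139 shared (70.5%), and for the top 10% 1134 of 1382 (82.1%).

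The highest minus the lowest percentile of a gene over the 4 mice had a median of 8.31. It was 1.48 among the brightest 1382 genes, 12.6 in the fifth of 10 equal bins from the bottom, and 5.65 in the dimmest bin. Of the 656 genes with a mean percentile over 95, 377 (57.5%) stayed within 1 percentile and 651 within 5. The median gap between mice of different arrays was 5.11 percentiles, 1.89 times that between mice of 1 array (2.71), and the ratio lay between 1.70 and 2.19 in all bins. Percentiles are bounded, so that a gene at either end has less room to move.

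Probes printed in several spots held their place better between arrays. For 246 ranked probes with 10 spots each, between-array coefficients were 0.938 to 0.964, against 0.917 to 0.935 for 16556 probes with 1 spot. Their median gap between arrays was 4.26 percentiles, against 5.38. On 1 array the probes with 10 spots had coefficients of 0.978 and 0.980, and those with 1 spot 0.983 and 0.980.

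**Figure D4:**
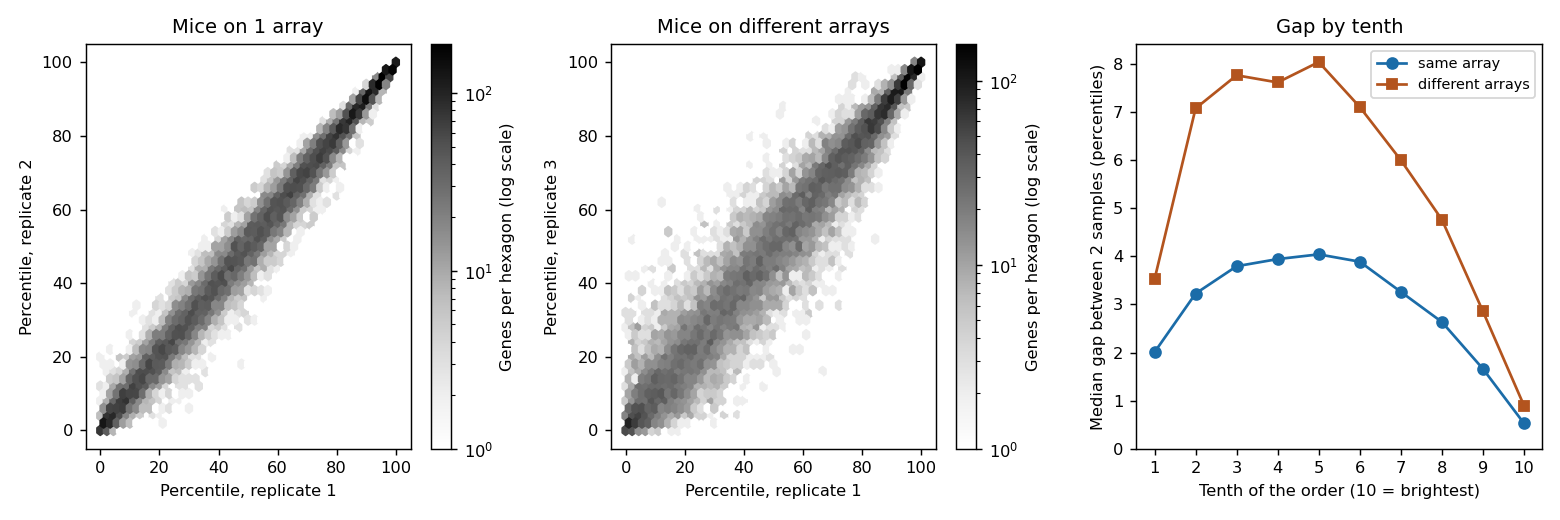
Left and middle, percentile of each of 13812 genes in replicate 1 (x axis) against replicate 2 on the same array and replicate 3 on the other array (y axes), shaded by genes per hexagon on a log scale; right, median gap in percentiles between mice by bins of 10% of the order, for mice of 1 array (blue) and of different arrays (orange). The gap between arrays was 8.04 percentiles in bin 5 and 0.90 in bin 10.

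The 2 arrays were compared to see which genes moved. With limma on quantile-normalised log2 intensities, with array and dye as terms and 1 residual degree of freedom, 2908 of 13812 genes passed an adjusted p of 0.05, which is 21.1%. Of these, 1418 were higher in replicates 3 and 4 (10.3%) and 1490 lower (10.8%). The same fit called 0 genes between Cy5 and Cy3 (1117 at an unadjusted p under 0.05; lowest adjusted p 0.331). The share called fell from 28.3% in the third bin to 12.9% in the brightest. With the array as the only term the count was 2993, and it was 1310 without replicate 1, 1169 without replicate 2, 3162 without replicate 3 and 2032 without replicate 4. Animals, array and hybridisation are confounded in this comparison, and the fit draws its spread from few samples. That spread is between mice of 1 array, so it holds no spread between arrays.

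The largest differences with a symbol were of 3 to 5 log2 units. Dcc, a netrin receptor, lay at 49.6, 47.0, 96.2 and 96.7 and was higher in replicates 3 and 4 by 5.17 on the log2 scale (SE 0.16, limma adjusted p = 0.0129). Its ranked probe was a run of a 3-base repeat, its other probes were well above background in no sample, and RefSeq places Dcc on another chromosome than the file places the probe. Pigr, an immunoglobulin receptor, had a probe of the same kind, likewise placed on another chromosome, and lay at 91.8, 89.1, 98.0 and 98.0. Neither value can be taken as that of the named gene.

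Slc4a7, a bicarbonate transporter, went the other way, at 98.8, 97.7, 58.6 and 60.3, with a log2 difference of -5.41 (SE 0.23, limma adjusted p = 0.0129). Its second probe lay at 30.1 among all ranked probes. Pvalb, the parvalbumin gene, was higher in replicates 3 and 4 by 3.94 (SE 0.37, adjusted p = 0.0161), as were Mical2 by 4.02, Inadl by 3.90 and Folr1, a folate receptor of the choroid plexus, by 4.52. A second ranked probe of Mical2 lay between 6.64 and 10.4 among all ranked probes in the 4 mice, while the one used ran from 24.9 to 87.2. The second probe of Pvalb ran from 8.92 to 89.7. Folr1 lay at 0.652, 11.1, 62.5 and 79.2. Bbs10, a chaperonin-like gene of cilia, Chrna7, a nicotinic receptor subunit, Tonsl and Gabra5, a GABA-A receptor subunit, were lower in replicates 3 and 4, with log2 differences of -4.23, -4.00, -3.72 and -3.18. A second probe of Bbs10 lay between 5.92 and 17.1, while the one used ran from 2.26 to 71.2. These genes were chosen as the largest differences between arrays. Tagln, of smooth muscle, lay at 96.2, 95.9, 83.5 and 81.9.

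**Figure D5:**
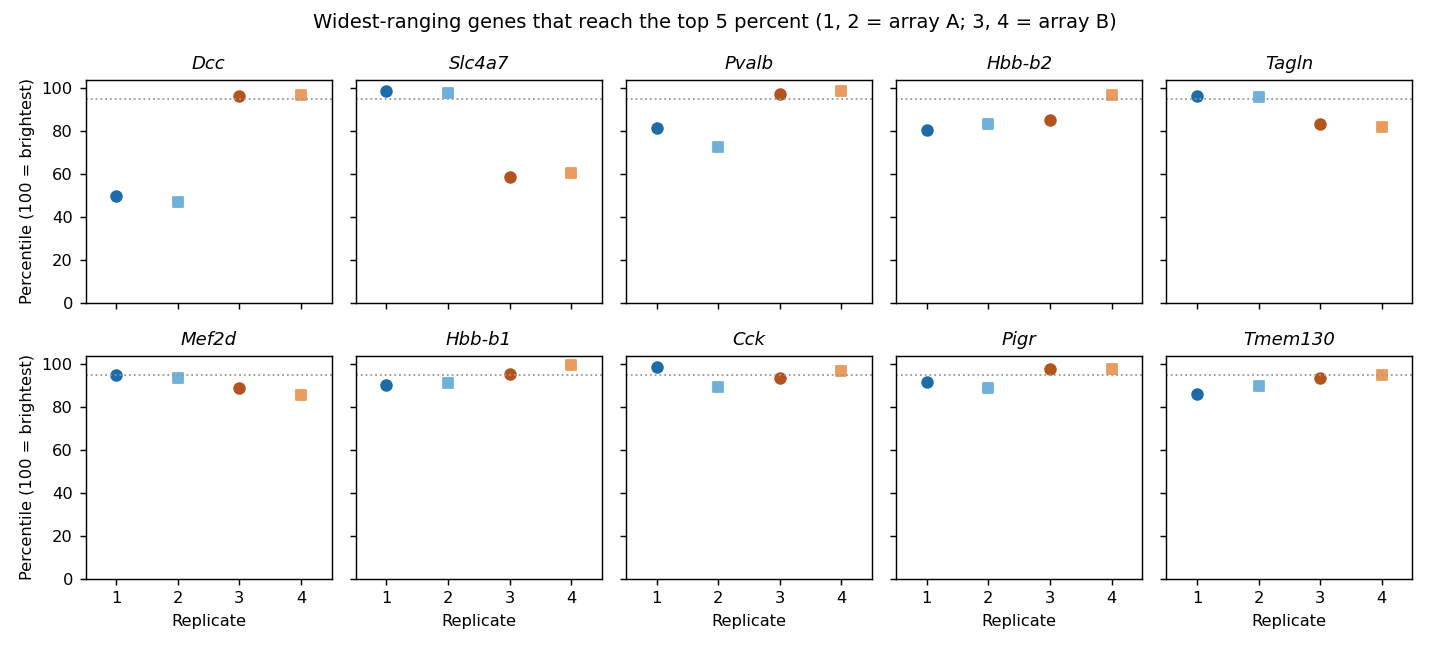
Percentile (y axis, 100 = brightest) in each mouse (x axis; replicates 1 and 2 share an array, as do 3 and 4) of the 10 genes with the widest range among those that reached the top 5% of at least 1 mouse; the dotted line is 95. Dcc and Slc4a7 separated the arrays in opposite directions, and Hbb-b1 and Hbb-b2 were highest in replicate 4, at 99.7 and 96.8.

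Some groups of repeat probes were called between the arrays more often than genes as a whole, of which 21.1% were called. Of the 50 genes read by a probe with a word of the 4 chosen probes in the same orientation, those 4 included, 31 were called, 29 of them higher in replicates 3 and 4, against 10.3% of all genes. Glrx2 was higher by 0.97 (SE 0.15, limma adjusted p = 0.0295), Synrg by 0.93 (SE 0.15, adjusted p = 0.029) and Rn4.5s by 1.06 (SE 0.14, adjusted p = 0.0235). Of 17 genes with a word in the reverse complement, 1 was called higher and 7 lower. Genes with a simple repeat of a 3-base unit were called higher in 58 of 90 cases and lower in 1, with a median difference of 1.31, and those with a 2-base unit in 22 and 6 of 116 (24.1% called). Those with a 4-base unit were called higher in 12 and lower in 8 of 62, with a median difference of 0.09. The median difference over all genes was -0.03. The cause was not tested.

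Several cell type lists moved with array or mouse. Thalamic genes had medians of 37.4, 32.2, 66.7 and 80.6, and 4 of 7 ranked members were called, all 4 higher in replicates 3 and 4, where 21.1% of all genes were called and 10.3% were higher. Prkcd, a protein kinase C, lay at 31.6, 55.7, 77.9 and 92.8, Ntng1 at 37.4, 32.1, 72.4 and 88.8 and Zic1 at 47.1, 67.8, 74.7 and 94.1. All 7 thalamic members were highest in replicate 4. Choroid plexus genes had medians of 12.1, 12.6, 39.1 and 56.3 over 4 ranked members and 2 were called higher, Folr1 and Clic6; ependymal genes had 14.7, 52.9, 53.6 and 68.7 over 5, and 2 were called higher, against the same 10.3%. Both lists rest on very few ranked genes.

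Replicate 4 stood apart within its array as well. Striatal projection neuron genes were lowest in replicate 4 in 15 of 17 cases, indirect-pathway genes in 4 of 5 and direct-pathway genes in 3 of 5, whereas 30.3% of all genes were. Myelin genes were highest there in 15 of 17, meningeal genes in 5 of 5, choroid plexus genes in 4 of 4 and red blood cell genes in 6 of 7, against 27.4% of all genes. Hba-a1, an alpha-globin gene, lay at 96.8, 96.8, 96.8 and 99.9. Scn4b lay at 99.4, 98.9, 99.0 and 96.3, and Arpp21 at 98.3, 98.4, 98.2 and 94.95. None of the 17 striatal projection neuron genes passed the test between arrays, against 21.1% of all genes. Without replicate 4, the thalamic list had a median of 44.3 in place of 54.2. The part of these other cell types in the lower ranks of striatal genes was not tested.

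Immediate early genes were another list that varied, with medians of 64.8, 52.8, 57.1 and 41.4, and 14 of 18 members were lowest in replicate 4, against 30.3% of all genes. Jund (95.4), Arc (90.2) and Egr1 (89.8) led the list. Fos lay at 32.9, 40.3, 14.1 and 13.4 and was lower in replicates 3 and 4, with a log2 difference of -1.49 (limma adjusted p = 0.0208), 1 of 4 of the 18 members that were called, all of them lower, against 21.1% of all genes called and 10.8% lower; the share called was near that of all genes. Egr3 and Nr4a3 were well above background in no sample.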

How the data were processed

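RNA of 4 wildtype mice was read on 2 Agilent arrays. Per the file headers, the authors' scanner software, Agilent Feature Extraction 11.0.1.1, gave a raw intensity and a processed intensity of each spot, the latter subtracted for background and dye-normalised. The authors' deposited value table gives a ratio: each value equalled the median spot signal minus background over a constant, in 100% of values, with column medians of 1; its direction across samples and further steps are not given in the sources used here, and it was not used beyond this check. Coordinates are on mm9, per the file headers.

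The processed intensity of each mouse's own channel was used. Control spots and outlier-flagged spots were left out, spots of 1 probe were averaged and log2 values ranked over the 16802 probes well above background in all 4 samples, then again over the 13812 genes. Of these, 10475 had a symbol. Accessions in the files were matched to RefSeq (GRCm38.p6), used for names only, which gave 2838 probes another name.

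Arrays and dyes were compared with limma 3.58.1 in R 4.3.3, two-sided with Benjamini-Hochberg adjustment, and the fit was checked on simulated data. The simulated samples were independent of each other, so that check does not bear on mice that shared an array. Words and ranks were counted with Python 3.11.15. The mice are separate animals per the labels. The p-values draw on the spread between mice that shared an array, and hold no spread between arrays. The members, the gene lists (17 of cell types, 17 of functions) and the comparisons were chosen with earlier results of these data known, and the repeat groups after the ranks were seen. Genes were named by rule: the 30 highest with a symbol, the 3 highest of each list with defining markers not well above background, the 10 of widest range, the 5 largest array differences each way, and Brd2; other members named beside them were chosen with their values in view. The other 4 samples of the series were not analysed here. Some genes that this rule names are not reported here.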

Additional observations from a re-analysis of the deposited data

Results flagged for a closer look

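A sample was set apart where its gap to the nearest other mouse took up a share of the range of the 4 above Dixon's critical value at the 95% level. Among 34 list medians 3 met this, and among 127 genes, judged on quantile-normalised log2 intensities, 7 did; chance gives about 5% of groups if the 4 samples are independent, whereas here the mice shared arrays in pairs. Interneuron genes were low in replicate 4 (median 56.22, against 63.4 to 64.7), and meningeal genes were high there (41.81, against 21.8 to 24.7, over 5 ranked genes). Translation factors were low in replicate 2 (87.95, against 90.7 to 90.9).

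Exosc2, with percentile 99.98 and position 4 in replicate 1, was at position 1 in the others. Quantile normalisation gives the gene at position 1 the same value in each mouse. The flag of Exosc2 therefore followed from its positions alone. Hba-a1 (99.92) and Hbb-b2 (96.78) were high in replicate 4, against 96.8 and 80.6 to 85.1 in the other mice. Slc4a5, a bicarbonate transporter of the choroid plexus, was also high there at 33.43, against 12.6 to 15.6, and Pde2a was low there at 97.34. Myl4, an atrial myosin light chain, lay at 80.26 in replicate 1 and between 35.6 and 38.3 in the others. Atp6v0e2, a proton pump subunit, was low in replicate 2 at 95.71. Of these 10, 6 fell on replicate 4.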

How the results depend on the processing

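The count of genes that differed between arrays (2908) was 1475 with symbols only, and 0 with no filter on dim probes (8522 at an unadjusted p under 0.05 in limma, lowest adjusted p 0.0835). It ran from 1169 to 3162 when 1 mouse was left out with the array as the only term, with 1310 without replicate 1 and 1169 without replicate 2. Genes ranked numbered 28775 with no filter. Genes shared by the top of all 4 mice (555) numbered 1178 with no filter, 98 for the top 1% and 1134 for the top 10%.

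The median range of a gene's percentile (8.31) was 8.89 with symbols only, 8.70 on median minus background signal, 8.67 on normexp signal, 7.67 with outlier spots kept and 6.63 with no filter, and 6.29 to 6.89 with 1 mouse left out. The median gap between probes of a gene (22.4) was 24.01, 20.1 and 21.1 with symbols only, no filter and outlier spots kept. The highest coefficient between arrays (0.941) was 0.950 with outlier spots kept and 0.921 where 2 samples had to be well above background, and 0.929 to 0.941 with 1 mouse left out. The lowest on 1 array (0.982) was 0.979 with symbols only, 0.980 for the mean over probes, 0.969 with no filter and 0.985 with outlier spots kept, and 0.982 to 0.984 with 1 mouse left out.

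Of 442 list values, 119 moved by more than 1 SD between mice and 14, in 8 lists, crossed the 50th percentile. The setting without repeat probes was chosen after seeing the data. Leaving out a mouse with array and dye both as terms was not run, since 0 residual degrees of freedom were left. No paired analysis was possible because wildtype was the only group described, which left nothing to pair its replicate numbers with; the dyes were compared within arrays through the array term. With 4 mice on 2 arrays, dim genes and lists of few ranked members are the least certain values.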
